A study of Mus musculus with 30 samples.

Results

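AtT-20 is a mouse pituitary tumour cell line of the corticotrope lineage, and the 12 h arrays compared its RNA after 12 h with 100 nM corticotropin-releasing hormone (CRH) with RNA of untreated cells harvested at the same hour. They are 6 of the 30 arrays of a time course of 1, 3, 6, 12 and 24 h, in which every hour has untreated cells of its own. CRH of the human/rat sequence was added to cells of this 1 line, treated and untreated alike having been kept without serum before and during treatment. Labelled RNA of both kinds was hybridised together on spotted cDNA arrays, with CRH-treated RNA in Cy3 in replicates 1 to 3 and in Cy5 in replicates 4 to 6. All 6 arrays hold 1 pair of RNA extracts and are technical replicates, so their spread measures labelling, hybridisation and scanning, and no p-value for CRH at 12 h can be had from them. The arrays were chosen by their titles, and no measured value entered that choice.

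CRH reaches the corticotrope from the hypothalamus and binds the receptor CRHR1, which acts through the stimulatory G protein, cAMP and protein kinase A, and also through MAP kinases. The acute answer is the release of ACTH from secretory granules and the transcription of immediate early genes. Over longer times the cell makes more proopiomelanocortin, the precursor of ACTH. A secreted peptide of this kind is folded, glycosylated, sorted and stored. The hour looked at here belongs to what the study calls the late CRH response.

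Of 22830 spots that carry a gene or transcript, 14375 were bright enough on every array to be measured. Each value below is a log2 ratio, positive where CRH-treated cells had more of the RNA, corrected in each printing block, and a mean is the average of the means of both dye orientations. Median spot intensity at 12 h lay between 1077.6 and 1737.9 per channel, and precision is limited by there being 6 arrays. Replicates 1 to 4 were quantified on 1 day and replicates 5 and 6 on another. The array carries 3 of 5 corticotrope markers looked for, and all 3 were measured: Pomc lay at a median intensity percentile of 93.9, the Neurod1 spots at 95.5 and 78.5 and Tbx19 at 36.5. Gh, the 1 marker of 7 for other pituitary lineages on the array, lay at 16.3. Of the other markers, 3 of 5 for fibroblasts and 3 of 6 for leukocytes were measured, among the latter Cd3e at 91.6, whereas Ptprc, Cd3d and Cd79a, like Dcn and Lum, were not.

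After 12 h, 18 spots were at least 1.5-fold higher in CRH-treated cells with one sign on all 6 arrays, which is 0.125% of the spots measured, and 2 were lower, which is 0.0139%. The highest was at 1.92-fold, so that none was 2-fold. They carry Pak3, Syt4 (on 2 spots), Misp3, Ostc, Zcchc12, Nap1l5, Eprs, a heat shock protein, Ttyh1, Kif18b, Cyp51, Plagl1, 4930555G01Rik, Polb, Ifrd1 and 2 transcripts without a gene name. The lower spots carry no gene name either. A clone or EST description is not counted as a gene name here, and that of spot 23039 cites similarity to a rat proton-gated cation channel. In RNA of a whole culture, fewer cells of a kind and less RNA per cell cannot be told apart. With each array only centred on its median, without the correction in each printing block, the split was 27 higher and 12 lower. A looser limit of 0.322 on the log2 scale, with the same rule on sign, gave 160 spots higher (1.11%) and 101 lower (0.703%). Over all spots the mean log2 ratio had a median of −0.006 and an SD of 0.16. Within a spot the SD over the 6 arrays had a median of 0.35.

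The promoters of 4 genes of this set follow, since they differ in the letters that a cAMP-responsive promoter often holds. They are RefSeq sequence of mouse build GRCm38.p6, from 250 bases before to 50 after the start of transcription. Capitals mark a match to TGACG, the core of the cAMP response element (CRE), or in Pak3 to the E-box CACGTG, on either strand.
Pak3 (chrX:143518341-143518640, plus strand): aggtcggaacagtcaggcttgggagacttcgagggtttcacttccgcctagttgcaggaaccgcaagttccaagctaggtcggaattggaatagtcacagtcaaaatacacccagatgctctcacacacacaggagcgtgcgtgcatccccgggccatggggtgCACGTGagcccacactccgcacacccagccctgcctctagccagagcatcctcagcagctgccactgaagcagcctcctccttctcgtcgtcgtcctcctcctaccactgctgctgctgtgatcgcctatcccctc
Eprs (chr1:185362794-185363093, plus strand): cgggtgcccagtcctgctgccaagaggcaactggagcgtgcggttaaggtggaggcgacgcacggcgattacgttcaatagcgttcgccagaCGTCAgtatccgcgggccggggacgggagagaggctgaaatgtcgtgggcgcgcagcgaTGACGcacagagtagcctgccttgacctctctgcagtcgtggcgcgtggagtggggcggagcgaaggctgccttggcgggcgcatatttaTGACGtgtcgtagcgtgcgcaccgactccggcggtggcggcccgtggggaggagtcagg
Zcchc12 (chrX:36195654-36195953, plus strand): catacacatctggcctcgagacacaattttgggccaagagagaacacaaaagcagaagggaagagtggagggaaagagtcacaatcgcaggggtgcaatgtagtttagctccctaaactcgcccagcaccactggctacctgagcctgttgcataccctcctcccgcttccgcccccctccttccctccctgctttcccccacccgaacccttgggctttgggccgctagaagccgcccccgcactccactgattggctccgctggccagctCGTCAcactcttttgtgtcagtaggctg
Cyp51 (chr5:4104648-4104947, minus strand): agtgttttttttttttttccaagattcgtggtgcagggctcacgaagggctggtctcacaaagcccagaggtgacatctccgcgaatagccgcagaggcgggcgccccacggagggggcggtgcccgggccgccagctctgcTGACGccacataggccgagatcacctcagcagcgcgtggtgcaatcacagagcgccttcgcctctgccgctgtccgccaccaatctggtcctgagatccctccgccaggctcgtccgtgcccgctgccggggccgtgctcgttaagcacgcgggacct

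For 11 of the 14 gene symbols among the 20 spots the promoters used here held 13 sequences, since Pak3 has 3; Ostc, Polb and Syt4 were not counted. None of the 13 holds the full CRE letters TGACGTCA, against 1.79% of 32851 mouse promoters. The core TGACG, which lies within the full element, was found in 5 promoters (38.5%), those of Cyp51, Eprs, Ifrd1, Nap1l5 and Zcchc12, against 20.8% of all promoters. The Eprs promoter above holds it 3 times. The E-box was found in 2 promoters (15.4%), the first of Pak3 and that of Plagl1, against 7.15% of all. Matches of letters are a description of these windows, and 13 promoters are few.

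Pak3, a serine/threonine kinase that acts downstream of the small GTPases Rac and Cdc42, stood highest of all spots measured. Its spot 8455 read 0.64, 1.00 and 0.71 with CRH-treated RNA in Cy3 and 0.91, 1.06 and 1.31 with it in Cy5. All 6 values were above the 1.5-fold line of 0.585. The mean was 0.94 ± 0.24 (SD, n = 6 arrays), or 1.92-fold. At 1 h the same spot was at −0.07, and at 3, 6 and 24 h at 0.43, 0.77 and 0.43.

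Syt4, a synaptotagmin found on the vesicles and granules of neuroendocrine cells, passed the rule on 2 of its 3 measured spots. On spot 6751 the Cy3 arrays read 1.32, 1.15 and 1.24 and the Cy5 arrays 0.56, 0.17 and 0.32, with a mean of 0.79 ± 0.50 (SD, n = 6 arrays). On spot 15969 the values were 0.68, 1.19 and 1.22 and then 0.42, 0.07 and 0.43, with a mean of 0.67 ± 0.46. Both spots were thus higher in every array with CRH in Cy3 than in any with it in Cy5. The third spot, 12034, lay on both sides of 0, from −0.13 to 0.25, with a mean of 0.05 ± 0.16. Spots 6751 and 15969 were also higher earlier, at 0.69 and 0.64 after 3 h, where both passed the rule.

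Ostc and Eprs both act in the making of proteins. Ostc, a subunit of the oligosaccharyltransferase that attaches glycans to proteins entering the endoplasmic reticulum, read 0.36, 0.48, 0.94, 0.93, 0.70 and 0.87 in replicates 1 to 6 and had a mean of 0.71 ± 0.24 (SD, n = 6 arrays). The arrays of both orientations overlapped. Eprs, the synthetase that loads glutamate and proline onto their tRNAs, read 0.83, 1.00, 0.69, 0.66, 0.20 and 0.67 on spot 13429 and had a mean of 0.67 ± 0.27. Replicate 5 was the lowest. Its other measured spots, 1686 and 1915, had means of 0.23 ± 0.12 and 0.19 ± 0.21. All 3 Eprs spots thus had a mean above 0, and 1 of them was past the rule. Spots 1686 and 1915 were higher after 3 h, at 0.40 and 0.48 with all 6 arrays above 0, where spot 13429 was at 0.03.

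A spot that the file names "heat shock protein, 1", a name that cannot be tied to 1 gene symbol, showed the least spread among the 18. Spot 9815 read 0.48, 0.67, 0.63, 0.76, 0.74 and 0.74, with a mean of 0.67 ± 0.11 (SD, n = 6 arrays). Its mean at 1, 3, 6 and 24 h was −0.47, −0.17, 0.18 and −0.32, so 12 h was the highest of the 5 hours. Of 4 other measured spots with that name, spot 8932 came next at 0.53 ± 0.19 and was above 0 on all 6 arrays. It had means of −0.27, −0.24, 0.24 and −0.39 at the other hours. Spots 3092, 3640 and 21782 had means of 0.31, 0.14 and 0.02 at 12 h and changed sign between arrays, 3092 and 3640 having reached the scanner's upper limit on at least 1 array, where a ratio is uncertain. Whether these spots carry the same gene cannot be told from the name.

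Cyp51, the lanosterol demethylase of cholesterol synthesis, was measured on 3 spots. Spot 8192 read 0.23, 0.08, 1.07, 1.20, 0.50 and 0.80, with a mean of 0.65 ± 0.45 (SD, n = 6 arrays), and passed the rule. Spots 3495 and 11165 had means of 0.41 ± 0.34 and 0.32 ± 0.36 and were above 0 on 5 arrays each. At 1 h and 24 h spot 8192 was on the other side of 0, at −0.49 and −0.20. Hmgcs1, which makes the precursor of mevalonate, had 6 positive values on spot 6705, from 0.04 to 0.87, and a mean of 0.41 ± 0.36. Its values were 0.68, 0.63 and 0.87 in Cy3 and 0.04, 0.05 and 0.16 in Cy5. After 24 h the same spot had a mean of −0.81, below 0 on every array. Its other spot, 16977, had a mean of 0.21 ± 0.36 with 4 of 6 arrays above 0, and −0.57 ± 0.55 after 24 h with 2 above 0.

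Ttyh1, of the tweety family of chloride channels, read 0.97, 0.51, 0.76, 0.40, 0.51 and 0.80 on spot 2774, with a mean of 0.66 ± 0.22 (SD, n = 6 arrays). On spot 10217 the mean was higher, at 0.77 ± 0.82, but it was made by the Cy3 arrays, which averaged 1.47 where the Cy5 arrays averaged 0.07, and 1 array was below 0. On the third spot, 23469, the mean was 0.16 ± 0.38. Of the 3 spots, 2 therefore had a mean past 1.5-fold and 1 of those had one sign throughout. Spot 2774 was past the rule at 24 h too, at 0.69.

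Zcchc12, Nap1l5, Plagl1 and Ifrd1 belong to families that act on transcription or chromatin. Zcchc12, a zinc finger coactivator, read 1.05, 0.80, 0.80, 0.61, 0.40 and 0.49 and had a mean of 0.69 ± 0.24 (SD, n = 6 arrays). Nap1l5, an imprinted gene of the nucleosome assembly protein family, read 0.73, 0.92 and 1.35 in Cy3 and 0.42, 0.32 and 0.35 in Cy5 on spot 10173, with a mean of 0.68 ± 0.41. In both genes the Cy3 arrays were the higher ones. A second Nap1l5 spot, 18495, was above 0 on all 6 arrays with a mean of 0.36 ± 0.30. Plagl1, an imprinted zinc finger factor, went the other way by dye, with 0.17, 0.08 and 0.24 in Cy3 and 0.97, 1.26 and 0.88 in Cy5 and a mean of 0.60 ± 0.50. Ifrd1, a transcriptional coregulator, read 0.92, 1.19 and 0.82 and then 0.18, 0.33 and 0.07, with a mean of 0.59 ± 0.45. The orientations did not overlap in Plagl1 or in Ifrd1.

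Kif18b, a kinesin of dividing cells, read 0.52, 0.33, 1.04, 0.81, 0.50 and 0.69, with a mean of 0.65 ± 0.26 (SD, n = 6 arrays). Polb, the DNA polymerase of base excision repair, read 0.33, 0.59, 1.23, 0.87, 0.06 and 0.44, with a mean of 0.59 ± 0.41. Both were near 0 after 6 h, at 0.02 and −0.14. Misp3 had the tightest values after the heat shock spot: 0.74, 0.78, 0.71, 0.86, 0.43 and 0.79, with a mean of 0.72 ± 0.15. The RIKEN transcript 4930555G01Rik had a mean of 0.59 ± 0.38, with orientation means of 0.89 in Cy3 and 0.29 in Cy5. Those of Misp3 were 0.75 and 0.69.

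Of the spots with no gene name, spot 936 read between 0.47 and 0.95 with a mean of 0.70 ± 0.19 (SD, n = 6 arrays), and spot 1857 between 0.14 and 1.72 with a mean of 0.77 ± 0.59. The first was past the rule at 3, 6 and 24 h too, while the second lay between −0.09 and 0.11 at the other 4 hours. The lower spots were spot 13294, from −0.82 to −0.30 with a mean of −0.59 ± 0.24, and spot 23039, which read −0.42, −0.22, −0.28, −0.28, −1.82 and −0.54. In spot 23039 replicate 5 alone made the size: the mean was −0.59 and no other array reached 1.5-fold. Just inside the limit stood Ifrd1 and Polb at 0.59. Just outside it, with one sign on all arrays, stood spots named poly(rC) binding protein 3 and WW domain binding protein 5, each at 0.58. Spot 4419, a clone described as a homolog of phosphoacetylglucosamine mutase, was at 0.58 too. Just outside it below 0, also with one sign, stood a spot named apolipoprotein B editing complex 2 at −0.57, Rgs4 at −0.55 and Malat1 at −0.53.

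**Figure D1:**
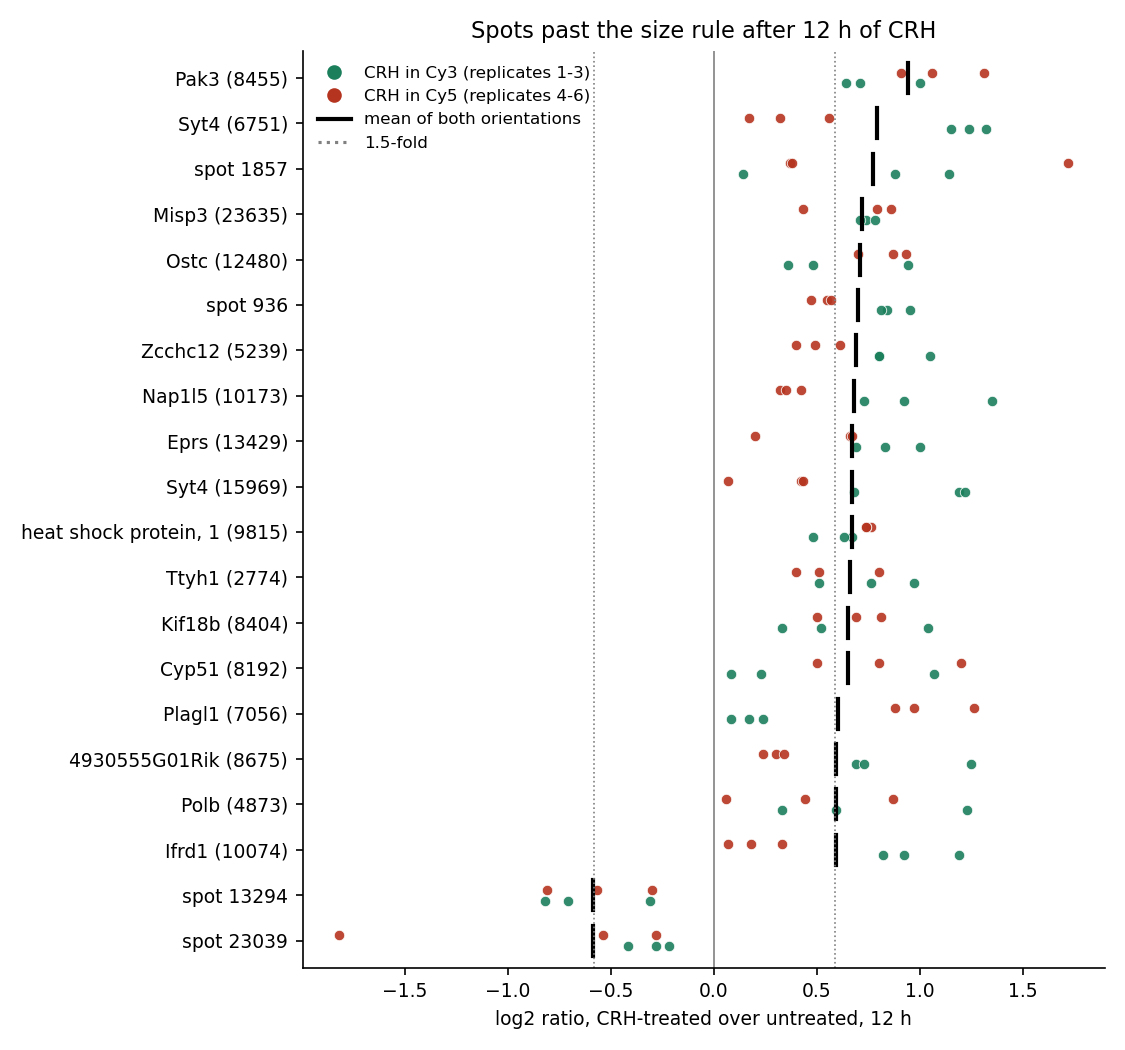
Log2 ratio at 12 h, positive where CRH-treated cells had more RNA (x axis), for the 20 spots past the size rule (y axis, gene and spot number); points are arrays by dye orientation, black bars the mean of both orientations and dotted lines 1.5-fold. The 6 points of Pak3 sit between 0.64 and 1.31, while the Cy3 points of Syt4 and the Cy5 points of Plagl1 sit to the right of those of the other dye.

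Dye orientation moved with many of these values. Across all measured spots the means of both orientations, each already turned to read CRH-treated over untreated, correlated at r = −0.535. Arrays of one orientation correlated with each other at 0.447 to 0.493, and arrays of opposite orientation at −0.38 to −0.315. These correlations are across spots of arrays that hold the same 2 extracts and share the dyes. A dye difference of constant size cancels in the mean of both orientations. Of the 18 higher spots 11 had a higher mean in Cy3 than in Cy5, and 6 were past 1.5-fold in both orientations taken alone: Pak3, Misp3, Ostc, the heat shock spot 9815, Kif18b and the unnamed spot 1857. In 9 of the 18 no array read below 0.3.

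With no rule on sign, 33 spots had a mean of 1.5-fold in size, 27 higher and 6 lower. Among the 13 that the sign rule left out, Cdc25b, a phosphatase that starts mitosis, read 1.75, 1.96 and 1.72 in Cy3 and −0.87, −0.69 and −0.16 in Cy5, with a mean of 0.62 ± 1.33 (SD, n = 6 arrays). No Cy3 value of Cdc25b came near a Cy5 value. One sign on all 6 arrays was found in 374 spots above 0 (2.60%) and in 282 below (1.96%), whatever their size.

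**Figure D2:**
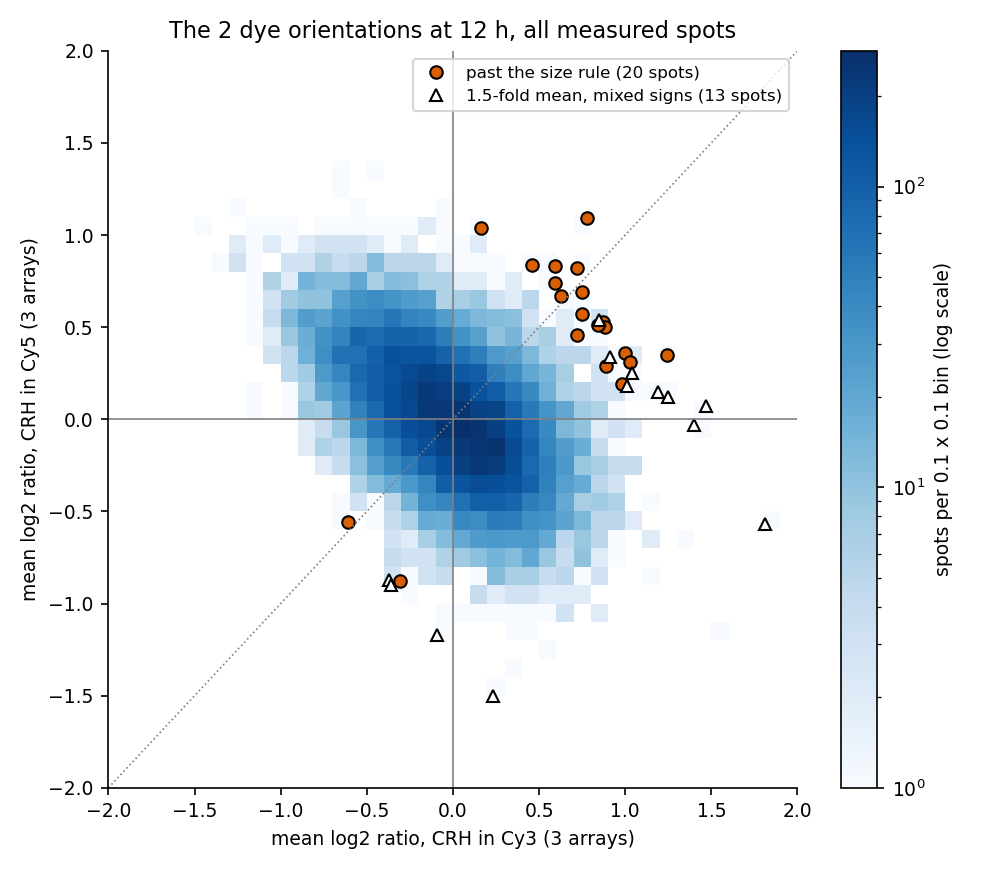
Mean log2 ratio at 12 h over replicates 1 to 3, with CRH in Cy3 (x axis), against that over replicates 4 to 6, with CRH in Cy5 (y axis); shading counts spots per bin on a log scale, circles are the 20 spots past the size rule and triangles the 13 with a 1.5-fold mean and mixed signs. The cloud slopes downward (r = −0.535). Both means of a circle lie on the same side of 0 because the rule asks for one sign, as for Plagl1 at 0.16 and 1.04.

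By day of quantification, the means of the 18 spots ran from 0.54 to 0.90 on the day of replicates 1 to 4 and from 0.20 to 1.19 on that of replicates 5 and 6. The second day held only arrays with CRH-treated RNA in Cy5, so day and dye are partly the same split. Since the rule asks for one sign on every array, the sign within a day follows from it. Syt4 spot 6751 had 0.90 and 0.24 on these days and Pak3 0.85 and 1.19, and the part of the day in the values was not tested.

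Further spots of the same genes had lower means than the spots past the rule, except Ttyh1 spot 10217 (0.77 against 0.66). The 6 genes or names with more than 1 measured spot had 12 further ones, all 12 of them with a mean above 0 and a median of 0.27, against 48.4% of all spots above 0. Of these 12 spots, 2 were past the looser limit of 0.322 with one sign, Nap1l5 spot 18495 and heat shock spot 8932. Over the 1836 genes with several measured spots, 53.7% of 2930 pairs of spots had the same sign. A spot's clone and its position in the gene are not given in the files used here. Dimmer spots that were not measured on every array had means of 0.05 (Syt4), −0.12 (Nap1l5), 0.27 (Cyp51) and 0.27 (Polb) when the filter was lifted.

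**Figure D3:**
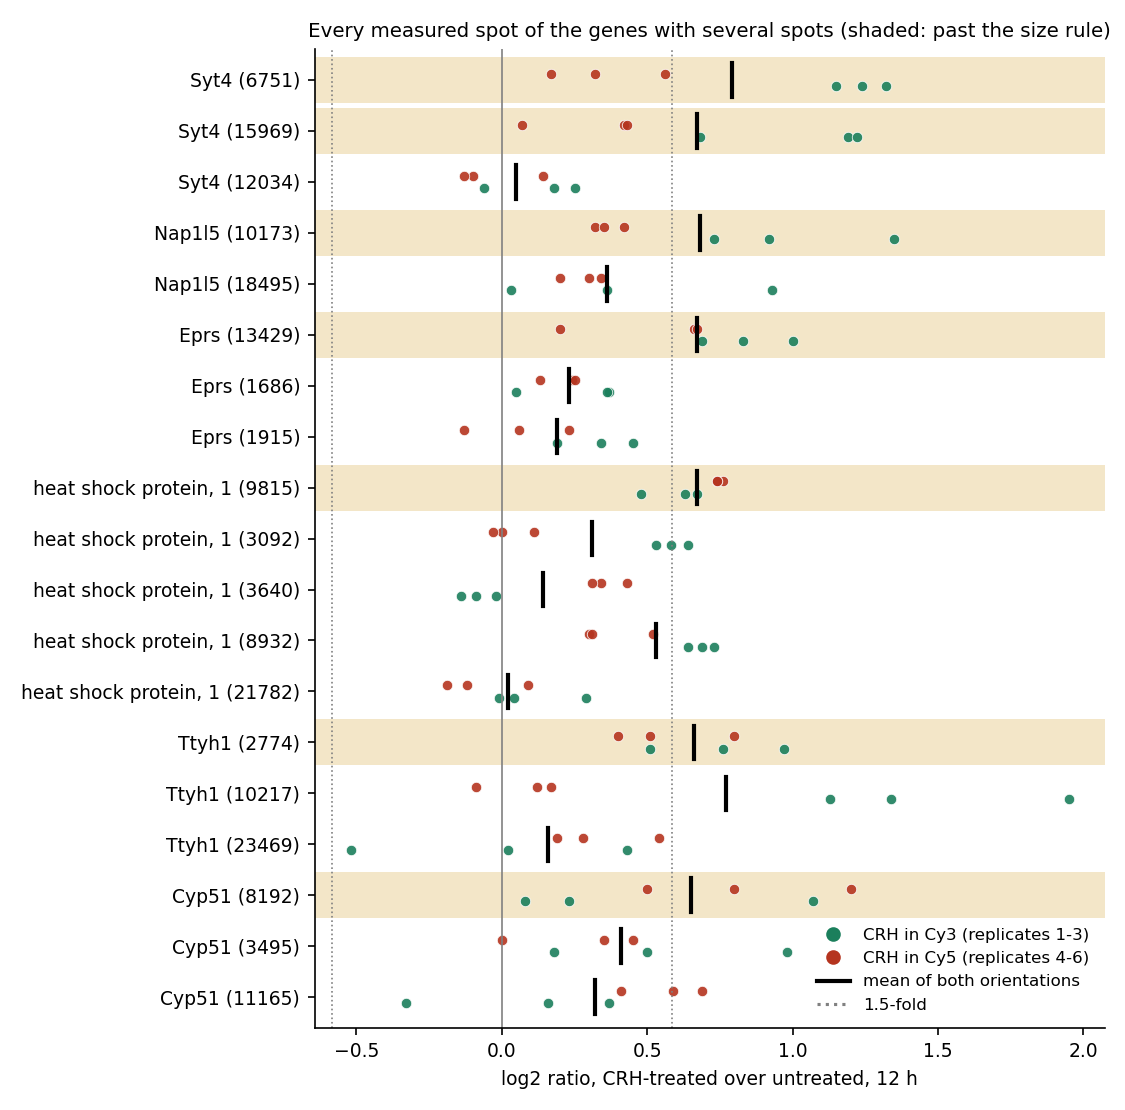
Log2 ratio at 12 h (x axis) on every measured spot of the genes that have several (y axis); points are arrays by dye orientation, black bars means of both orientations, and shading marks spots past the size rule. Of the Syt4 spots 2 sit at means of 0.79 and 0.67 and the third at 0.05, and the Ttyh1 spot 10217 has its Cy3 points at 1.13 and above and its Cy5 points near 0.

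The study's candidate genes were inside the 1.5-fold limits at 12 h on all 16 measured spots. These include further spots of the same genes that the study does not list. They leave out Crem spot 2781, the one the study lists, which was removed as too dim and is given below. Fosl2, an AP-1 subunit, was above 0 on all 6 arrays on both measured spots: spot 18869 read 0.77, 0.50, 0.95, 0.39, 0.31 and 0.30, with a mean of 0.54 ± 0.26 (SD, n = 6 arrays), and spot 19524 had a mean of 0.38 ± 0.15. Both spots were at 1.32 and 0.88 after 1 h. Acsl4, a fatty acid activating enzyme, had 0.29 ± 0.31, and the 3 Mat2a spots had −0.13, 0.05 and 0.20, the last on a spot that reached the scanner limit. Nf2, Pex13, Cd3e and Pebp1 lay at 0.13 ± 0.47, 0.04 ± 0.49, 0.08 ± 0.06 and 0.13 ± 0.31. In Nf2, Pex13 and Pebp1 the orientation means lay on opposite sides of 0. They were 0.48, 0.48 and 0.36 in Cy3 and −0.21, −0.39 and −0.11 in Cy5. Cd3e was near 0 yet on one side of it, from 0.01 to 0.15 on 6 arrays, with a mean of 0.60 after 24 h.

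Crem, the cAMP-responsive modulator from which an inducible repressor is made, depended on the spot and on the filter. Spot 7301 passed the filter and had a mean of −0.12 ± 0.26 (SD, n = 6 arrays). Spot 2781 is the Crem spot of the study's list. It was above the limit on all 6 arrays of 12 h but too dim on 2 arrays of other hours. It was therefore left out of the measured spots. Judged on the 12 h arrays alone it read 1.04, 1.19, 0.97, 0.83, 0.30 and 0.63, with a mean of 0.83 ± 0.32, and would stand second after Pak3. With no filter its means over the 5 hours, in order of time, were 1.69, 1.04, 0.35, 0.86 and 0.17. The means of the 2 Crem spots thus lay on opposite sides of 0.

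Below 0 no spot with a gene name was past the rule, although Ubr2, Mid1ip1 and Rhoh had means of −0.63, −0.63 and −0.62 with 1 array each above 0. Rgs4, which speeds the switching off of G protein signals, read −0.13, −0.31 and −0.26 in Cy3 and −1.06, −0.91 and −0.61 in Cy5, with a mean of −0.55 ± 0.38 (SD, n = 6 arrays). Malat1, a nuclear noncoding RNA, read from −0.92 to −0.23 on spot 7181, with a mean of −0.53 ± 0.26, and −0.03 ± 0.24 on spot 21560. Neurod1, a helix-loop-helix factor of the corticotrope, had the tightest low values on spot 6620, at −0.47, −0.50, −0.31, −0.56, −0.37 and −0.39, with a mean of −0.43 ± 0.09. On its other spot, 3014, the Cy3 arrays averaged 0.35 and the Cy5 arrays −1.36. Rgs4, spot 7181 of Malat1 and spot 6620 of Neurod1 were below 0 on all 6 arrays. Loxl3, a lysyl oxidase, had a mean of −0.45 ± 0.47 with 2 arrays above 0.

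Of 24 gene lists, 22 had no spot past the rule, and in 5 at least 71.4% of the spots were above 0. These lists were chosen with earlier results of these data known. Of 27 spots for cholesterol synthesis, 1 was past the rule (Cyp51), 3 past the looser limit and 22 above 0 (81.5%), and their median was 0.162, against 48.4% and −0.006 over all spots. The array medians of this list ran from 0.050 to 0.267. Besides Cyp51 and Hmgcs1, Scap, the sterol sensor that escorts the SREBP transcription factors, was at 0.33 ± 0.29 with 6 arrays above 0 on a spot that reached the scanner limit, and Nsdhl, a sterol dehydrogenase, at 0.30 ± 0.35 with 4. The list's medians at the other hours were −0.152, 0.076, 0.142 and −0.123 at 1, 3, 6 and 24 h.

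For the unfolded protein response and folding in the endoplasmic reticulum, 0 of 18 spots were past the rule, 2 were past the looser limit and 14 were above 0 (77.8%), with a median of 0.110. Hspa5, the main chaperone of that compartment, read 0.22, 0.57, 0.22, 0.43, 0.67 and 0.52, with a mean of 0.44 ± 0.19 (SD, n = 6 arrays). At 1, 3, 6 and 24 h the list had medians of −0.08, 0.079, 0.105 and 0.057, so that 6 h was close to 12 h. For transport from the endoplasmic reticulum to the Golgi, 0 of 57 spots were past the rule, 5 past the looser limit and 44 above 0 (77.2%), with a median of 0.109. Its medians at 1, 3, 6 and 24 h were −0.07, 0.097, 0.101 and 0.043, so that 3 and 6 h were close to 12 h. This list had medians of 0.233 in Cy3 and 0.027 in Cy5 at 12 h, with array medians from −0.032 to 0.323. Its highest were the cargo receptor Tmed10 at 0.54 ± 0.31 on spot 15400 and the translocon protein Ssr1 at 0.47 ± 0.39 on spot 10676, each above 0 on all 6 arrays. A second Tmed10 spot had 0.18 ± 0.69 and 2 further Ssr1 spots 0.29 and 0.08. Cytosolic ribosomal proteins had 60 of 84 spots above 0 (71.4%) with a median of 0.092, and the proteasome 31 of 42 (73.8%) with 0.055. At 1, 3, 6 and 24 h the ribosomal proteins had medians of −0.169, 0.203, 0.011 and 0.125. The proteasome had −0.134, 0.138, 0.030 and 0.048, and its array medians at 12 h ran from −0.045 to 0.207. Both lists were thus higher at 3 h than at 12 h.

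Secretory granule and exocytosis proteins had 2 of 34 spots past the rule, both of them Syt4, with a median of 0.047. Syt7 was at 0.37 ± 0.25 and Cplx2, a complexin that binds the release machinery, at −0.45 ± 0.43 on spot 14351. Genes of corticotrope identity and prohormone processing had 0 of 21 past the rule and a median of −0.018. Pomc, which encodes the ACTH precursor, read 0.11, 0.06, 0.37, 0.29, −0.09 and 0.25, with a mean of 0.17 ± 0.17 (SD, n = 6 arrays). It was thus above 0 on 5 of 6 arrays and inside both limits. For the CRH receptor, cAMP and G protein signalling, 0 of 49 spots were past the rule, 1 was past the looser limit (Rgs4) and the median was 0.009. Immediate early and cAMP-induced transcription factors had 0 of 19 past the rule and 2 past the looser limit, both of them Fosl2, with a median of 0.073. MAP kinases and their phosphatases had 0 of 39 past either limit and a median of 0.046.

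Single genes of other lists came near the limit. Odc1, the first enzyme of polyamine synthesis, read 0.60, 0.77, 1.17, 0.37, 0.18 and 0.26, with a mean of 0.56 ± 0.37 (SD, n = 6 arrays), after 0.73 at 3 h and 0.51 at 6 h. Cct8, a subunit of the cytosolic chaperonin, read 0.25, 0.44, 0.65, 0.79, 0.63 and 0.61, with a mean of 0.56 ± 0.19, while Tcp1 and Cct3 of the same complex had 0.44 ± 0.57 with 4 of 6 arrays above 0 and 0.30 ± 0.29 with 6, and the 4 Cct6a spots lay between −0.38 and 0.12. Of 33 spots for cytosolic heat shock proteins and chaperones 0 were past the rule and the median was −0.026; the spots named heat shock protein, 1 have no symbol and are not in that list. Glycolysis and hypoxia genes had a median of 0.059 with 0 of 33 past the rule, Pgk1 at 0.46 ± 0.24 and Gapdh at 0.44 ± 0.12 and 0.26 ± 0.40. Actb had means of 0.04, 0.00 and −0.20 on its 3 spots. Gapdh spot 17293 and Pgk1 were above 0 on all 6 arrays, whereas the Actb means differed in sign between spots.

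The remaining lists had 0 spots past the rule. Their medians were 0.073 for cell cycle and DNA replication, 0.051 for polyamine and methionine metabolism, 0.037 for housekeeping genes, 0.025 for fatty acid metabolism and 0.021 for the mitochondrial ribosome and protein import. They were −0.001 for peroxisome biogenesis, −0.009 for oxidative phosphorylation and −0.021 for the circadian clock. The 16 spots of the study's candidate genes, a list the study chose on these samples, had a median of 0.105. Markers of other cells gave medians of −0.176 for other pituitary lineages (4 spots), −0.153 for fibroblasts and matrix (16 spots) and −0.007 for T cells and other leukocytes (15 spots).

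**Figure D4:**
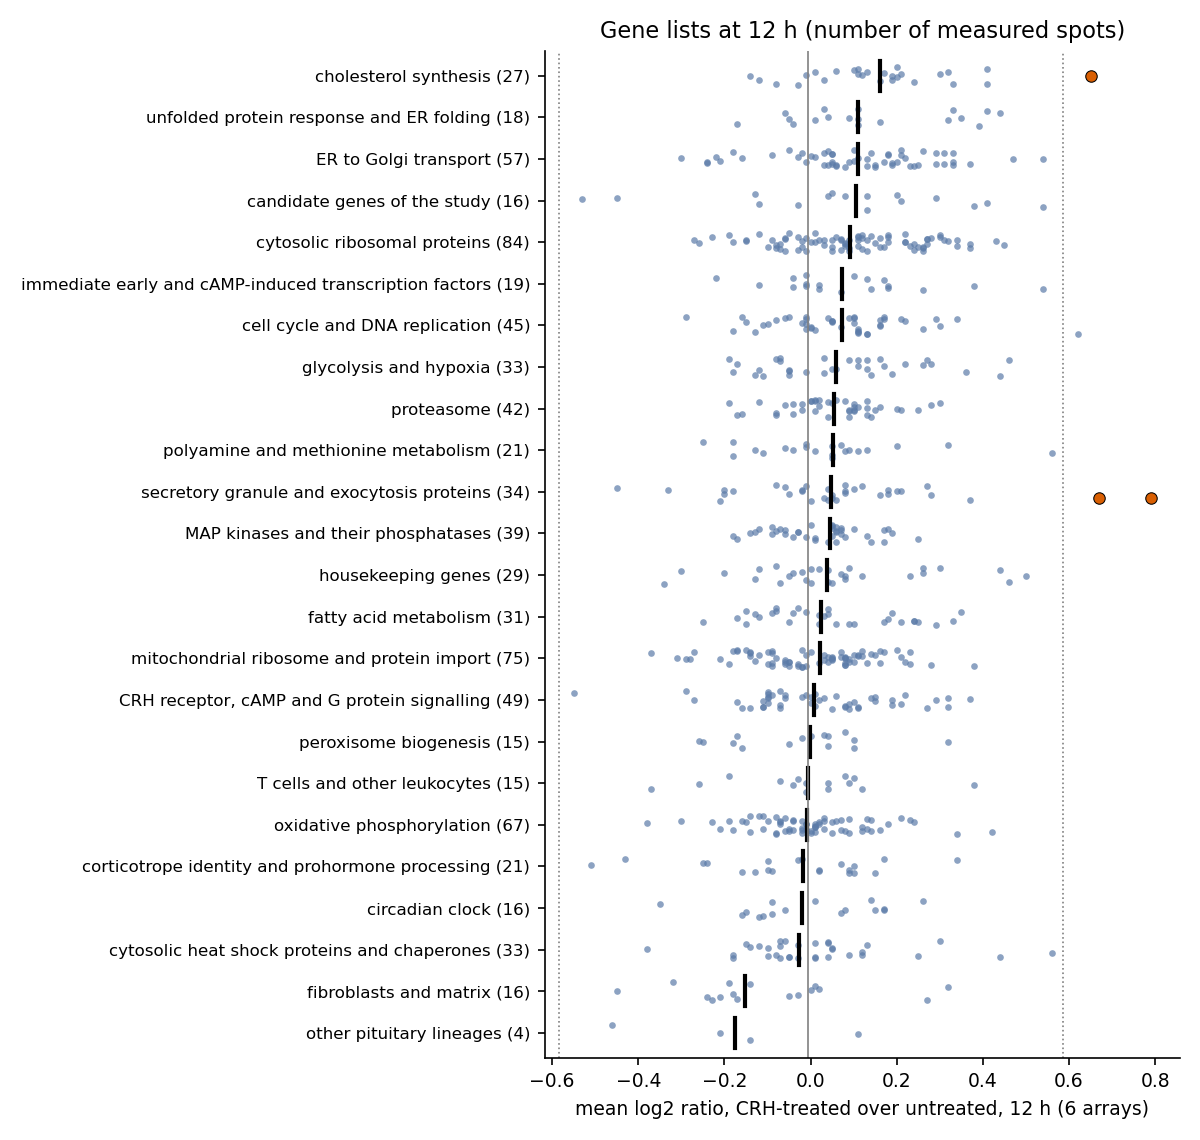
Mean log2 ratio at 12 h (x axis) of every measured spot of 24 gene lists (y axis, with the number of spots); black bars are list medians, the grey line the median of all spots, dotted lines 1.5-fold and large circles spots past the size rule. Cholesterol synthesis has the highest median, 0.162, and the large circles are Cyp51 and the 2 Syt4 spots.

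The other hours, each with its own pair of extracts, showed which values were shared in time. All 5 spots past the rule at 6 h (Pak3, Syt4 spot 6751, Misp3, Zcchc12 and spot 936) were also past it at 12 h, which is 100% of those at 6 h and 5 of 20 at 12 h. Of 23 spots past it at 3 h, 5 were past it at 12 h, of 28 at 1 h 1 was, Syt4 spot 15969, and of 22 at 24 h 2 were, Ttyh1 and spot 936. The 18 higher spots had medians of −0.04, 0.43, 0.37 and 0.10 at 1, 3, 6 and 24 h. Of them, 8, 15, 16 and 13 were above 0 at those hours, where 51.1%, 44.9%, 49.6% and 47.3% of all spots were. The 2 lower spots had means between −0.18 and 0.35 at the other hours.

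The question whether 12 h differed from the other hours was tested with limma on the averages of the 5 hours, each taken as 1 unit. One unit at 12 h is set there against 4 hours of a changing course, so that the spread of the test includes change between those hours. No spot passed an adjusted p of 0.05 (0.0% of 14375), and the smallest adjusted p was 0.9936 by limma with Benjamini-Hochberg adjustment. Unadjusted, 620 spots (4.31%) were under 0.05. Arrays taken as units, which counts technical replicates as if they were independent, gave 42 spots. A planted difference of 1 on the log2 scale was called in 32% of simulated spots at this size, and one of 0.5 in 1%.

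**Figure D5:**
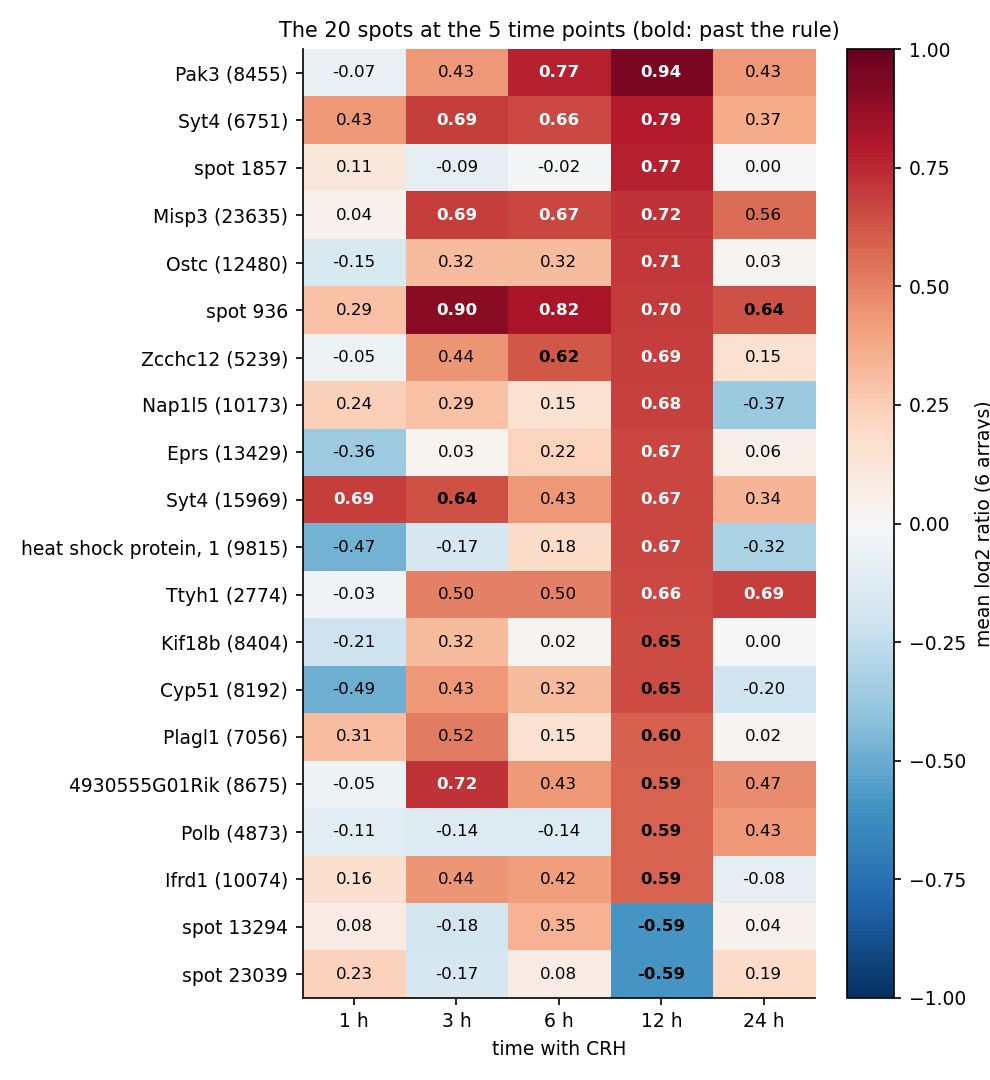
Mean log2 ratio of 6 arrays (colour and printed value) of the 20 spots past the size rule at 12 h (rows) at each of the 5 hours (columns); bold values are past the rule at that hour. Pak3, Syt4, Misp3, Zcchc12 and spot 936 are past it from 6 h or before, whereas spot 1857, Kif18b and Eprs spot 13429 lie between −0.36 and 0.32 at every other hour.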

How the data were processed

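Per the labels, total RNA of AtT-20 cells was amplified, labelled with Cy3 or Cy5 and hybridised on spotted cDNA arrays, with 1 pair of extracts and 6 arrays for each of 5 hours. The authors deposited scanner intensities in Cy3 and Cy5, for the spot and for its surroundings, neither subtracted nor normalised. They also deposited a table of log2 ratios, made by the authors after removing the lowest 10% of intensities and fitting a loess curve in each print-tip block; it was used as an alternative. RefSeq GRCm38.p6 gave promoters and current symbols.

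Ratios were recomputed from the intensities without background subtraction. Spots in the lowest 10% of a channel on any of the 30 arrays were removed, which leaves out genes that were dim at 1 hour only. A loess curve on intensity (degree 2, span 0.75, 4 iterations) was fitted in each print-tip block, and the sign of the ratio was turned by the dye labels. A block fit assumes that few spots of a block change, and a shift shared by all genes cannot be seen. The size rule asks for a mean of at least 0.585 on the log2 scale, which is 1.5-fold, with one sign on all 6 arrays; it is no test. For 12 h against the other hours, limma was fitted on the 5 averages, with 4 hours sharing 1 mean, and p-values were adjusted by Benjamini-Hochberg over 14375 spots at 0.05. Samples were grouped by their labels alone, and nothing in the labels speaks of separate cultures within an hour.

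Symbols came from the study's list for 97 measured spots, from RefSeq synonyms for 4579 and by hand from the file's gene name for 646. The remaining 9053 kept a name without a symbol or none. Some spots of the study's list carry another name on the array. Malat1 spot 7181 is receptor (calcitonin) activity modifying protein 2 there, Fosl2 spot 18869 B-cell CLL/lymphoma 7C and Pebp1 interleukin 17D. The study reports that it sequenced the array clones of selected candidate genes. Named were the study's candidate genes, the 12 highest and 12 lowest named spots past the size rule, up to 4 genes of each list by size of the mean, and Syt4, Rgs4, Misp3, 0610012D14Rik, Pomc, Gapdh and Actb; Hprt was too dim on all 30 arrays. Plagl1, 4930555G01Rik, Polb and Ifrd1, the spots outside the limits, and the spots without a gene name were added after their values were seen. The hours, genes and lists were chosen with earlier results of these data known. The contrast was tested on simulated data. R 4.3.3, limma 3.58.1, Python 3.11.15, numpy 2.4.6, pandas 2.3.3 and matplotlib 3.10.9 were used. Alternatives changed the background, filter, normalization, size, dye orientation, day, hours and replicates.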

Additional observations from a re-analysis of the deposited data

Results flagged for a closer look

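Single arrays stood apart from the other 5 of the same spot in 9 of 177 spots looked at, where chance gives about 1 in 20. Misp3 spot 23635 read 0.43 on replicate 5, with the other arrays between 0.71 and 0.86. Spot 23039, one of the 2 lower spots, read −1.82 on replicate 5, with the next at −0.54. The remaining 7 belong to named genes inside the limits. Tbx19, a factor of the corticotrope lineage, read 0.85 on replicate 6 where the others lay between −0.74 and −0.21. On replicate 6 also stood Scd2 spot 1601 at 0.60, Ssr1 spot 11385 at 0.44 and Rpl21 spot 10993 at 0.03, the last below its other arrays. Pex16 spot 15257 read 0.30 and Psmd5 0.71 on replicate 3, and Cct6a spot 20650 read −0.88 on replicate 1.

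In 11 comparisons all 6 arrays at 12 h lay on one side of 0 and all 6 of another hour on the opposite side, and these differences were not tested one by one. Many of the spots looked at were named by the size of their mean at 12 h. The share of all measured spots with such a pattern is not given here, so the 11 cannot be set against it. Above 0 at 12 h and below at 24 h were the heat shock spot 9815 (0.67 against −0.32), the heat shock spot 8932 (0.53 against −0.39), Hmgcs1 spot 6705 (0.41 against −0.81; spot 16977 had 0.21 and −0.57 with mixed signs) and Scd2 spot 11016, a fatty acid desaturase (0.21 against −0.42). Pex16 spot 21150 was the reverse, with −0.17 against 0.29. Against 3 h, spot 8932 had 0.53 and −0.24 and Cd3e 0.08 and −0.38. Against 1 h, Kif18b had 0.65 and −0.21, the ribosomal proteins Rpl36a and Rpl21 (spot 10993, which reached the scanner limit) had 0.45 and −0.30 and 0.37 and −0.32, and Cct6a spot 20650 had −0.38 and 0.23.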

How the results depend on the processing

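The 20 spots past the size rule became 89 when each channel had its 10th percentile taken off, 87 when dim spots were kept, 39 with median centring, 13 with the arrays scaled to one spread, 261 at the looser limit of 0.322, 0 at 2-fold and 33 without the sign rule. The arrays with CRH in Cy3 alone gave 1207, those in Cy5 936 and those of the second day at 12 h, all in Cy5, 1131. In these 3 settings a dye difference does not cancel, and fewer arrays must share a sign. The means had an SD of 0.343 in Cy3 and 0.318 in Cy5, against 0.16 for both orientations together. The arrays of the first day, which held both orientations, gave 78. The part of each in these counts was not tested. Leaving out 1 array gave 26 to 34, among them 33, 34 and 33 without replicates 1, 2 and 6. The other 9 alternatives stayed within 1.5 times of 20, among them 25 in the deposited log2 ratios, of which 14 were among the 20. Pak3, Misp3, Ostc and the heat shock spot 9815 were past the rule under 22 of 23 alternatives (all but 2-fold). Nap1l5 was past it under 19, Cyp51 and 4930555G01Rik under 17, Ifrd1 under 16 and Plagl1 under 15. Polb and spot 23039 were past it under 14 and spot 13294 under 10. The looser limit, the rule without sign and the removal of spots at the scanner limit could not drop any of the 20. Where only arrays were left out, the sign part of the rule could not fail. Of 240 list medians 2 moved by more than their spread: T cells and other leukocytes to 0.082 with median centring, and housekeeping genes to −0.028 without replicate 3, within −0.028 to 0.049 over the arrays left out. None of the named spots past the rule changed sign, which follows from the rule wherever only arrays were left out. Of 3328 values of named spots, 24 moved by more than the SD between arrays.

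For 12 h against the other hours, limma called 0 spots under 21 of 23 alternatives, with the smallest adjusted p from 0.09667 (without 1 h) to 1.0. With arrays as units it called 42, and 22 with the replicate number as a block. Same-numbered arrays of different hours deviated together at r from −0.0252 to 0.0519 and differently numbered ones from −0.0491 to 0.0526, so the numbers do not pair the samples. No array at 12 h decided the direction of a spot past the rule, since the rule asks for one sign on each. Spots dimmer than the limit, as for 1 Crem spot, are not covered by these counts.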

Other observations

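Judging brightness on the 12 h arrays alone brought 7 further spots past 1.5-fold above 0, which the filter over all hours had left out, and 3 below 0. These were chosen after their values were seen. Beside Crem (0.83 ± 0.32, SD, n = 6 arrays), the higher ones were a spot named bromodomain adjacent to zinc finger domain 1A (0.82 ± 0.40), gasdermin (0.69 ± 0.29), the unnamed spot 11995 (0.69 ± 0.42), FYVE and coiled-coil domain containing 1 (0.66 ± 0.99, with 2.67 on replicate 5), Ccnl2, a cyclin that acts in splicing (0.64 ± 0.27), and a long chain fatty acyl elongase (0.60 ± 0.54). Those below 0 were Mid1ip1 (−0.68 ± 0.47), Rhoh (−0.66 ± 0.62) and apolipoprotein B editing complex 2 (−0.60 ± 0.28), which were measured under either filter.

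Outside the named lists, 0610012D14Rik, which was past the rule at 1 and 3 h with means of 0.69 and 0.82, had a mean of 0.24 ± 0.32 at 12 h and orientation means of 0.52 in Cy3 and −0.05 in Cy5. Top2a, a topoisomerase of dividing cells from the cell cycle and DNA replication list, read 0.49, 0.22, 0.38, 0.37, 0.35 and 0.25. It had a mean of 0.34 ± 0.10, against −0.25, −0.02, −0.01 and 0.45 at 1, 3, 6 and 24 h.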
